A study of Mus musculus with 4 samples.

Results

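WNT ligands, the frizzled receptors that bind them, the secreted proteins that hold them back and intracellular proteins of the pathway were compared between the anterior and posterior lobes of the mouse cerebellum. The members were taken by gene symbol: every probe of the array named for a WNT, a frizzled (Fzd), an Sfrp, a Dkk, Dkkl1, Wif1, Frzb, Lrp5, Lrp6, Axin1, Axin2, Lef1, Tcf7, Tcf7l1 or Tcf7l2. This gave 47 of the 30854 gene names in the table, on 86 of its 45281 probes. They were 19 ligands, 10 frizzled receptors, 2 co-receptors, 11 secreted inhibitors and 5 intracellular proteins. These roles were given by family name, so Dkk3 and Dkkl1 count as secreted inhibitors whatever they do. No probe carried the name Tcf7l1. Another 2 probes carried the name Tcf3, which RefSeq lists as an older name of Tcf7l1 and as the current name of another gene, and they were not counted.

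The samples were total RNA from cerebella of Swiss mice at postnatal day 7, with no treatment. Anterior and posterior lobes were dissected apart, and 2 samples per lobe were each hybridized to a bead array of the Illumina MouseWG-6 v2.0 type, on which each probe is read from many beads. Neither the labels nor the methods say whether replicates 1 and 2 came from separate animals, so the p-values measure the spread between these samples, which may be technical. Median probe intensity was 129.6 and 110.2 on the anterior arrays and 121.8 and 123.7 on the posterior arrays. On the anterior arrays 21460 and 21574 probes were detected, and on the posterior arrays 21070 and 21288. A member probe was read from 21 to 74 beads per array. The number of arrays limits the precision, since an exact two-sided permutation test of 2 against 2 arrays cannot give a p below 0.333.

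WNT proteins are lipid-modified signals that act over short distances. In the canonical branch a WNT bridges a frizzled and the co-receptor Lrp5 or Lrp6, the complex that destroys β-catenin is held back, and β-catenin enters the nucleus to act with transcription factors of the Lef1 and Tcf7 family. Sfrp proteins, Frzb and Wif1 bind the ligand outside the cell, whereas Dkk1 and its close relatives block the co-receptor. In the cerebellum Wnt1 is known for setting up the territory in which the organ forms. Wnt7a is known for its release by granule neurons, where it remodels the mossy fibre axons that contact them.

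Each probe has a detection p-value on each array, which is low when few of the negative controls are as bright. A probe counted as detected under 0.05, and was tested when 2 or more of the 4 arrays detected it. Of the 86 member probes, 35 were tested, for 25 of the 47 genes, and 30 of the 35 were detected on all 4 arrays. Another 5 probes were detected on 1 array and 46 on none. The study's methods ask for over 1.2-fold and a p under 0.05 without saying whether p was adjusted. The unadjusted p was used here, and this is the study's criterion below. A figure caption of the study instead gives 1.5-fold, which no member probe passed. In a limma fit over 21726 probes, 6 of the 35 member probes (17.1%) passed it, against 8.29% of all probes tested. Probes for Fzd5, Fzd10, Wif1 and Dkk3 were higher in the posterior lobes, a direction in which 3.3% of all probes passed. Probes for Wnt7a and Sfrp1 were lower, a direction in which 5.0% passed. These 2 shares depend on the scaling. Of all probes 716 passed as higher and 1086 as lower, but 977 and 850 with the arrays set to a common 75th percentile. None of the 35 passed an adjusted p of 0.05 in limma, a threshold that 0.106% of all probes passed. At an unadjusted p under 0.05 the limma count was 6. By the methods' test 1 of the 35 member probes passed the criterion, against 3.41% of all probes, and 0 passed with adjustment. Fewer cells that express a gene and less of its RNA per cell cannot be told apart in tissue RNA.

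The median log2 difference, posterior minus anterior, was 0.09 over the 35 member probes and 0.0023 over all probes tested. The member median fell to 0.06 without anterior replicate 1 and to 0.04 without posterior replicate 2. Over the 30 member probes detected on all 4 arrays it was 0.08. The values of the lobes did not overlap for 17 of the 35 member probes (48.6%), against 42.6% of all probes. For 14 of the 35 (40%) they did not overlap and were higher in the posterior lobes, against 21.1% of all probes. These 14 include a probe each for Fzd10 (ILMN_2640796) and Dkkl1 (ILMN_2627081) that only the posterior arrays detected. Both were thus tested through the lobes where they were higher. The median absolute log2 difference between the anterior replicates was 0.24 over the member probes and 0.14 over all probes. Between the posterior replicates these medians were 0.12 and 0.09. The anterior replicates thus lay farther apart than the posterior ones.

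The calls depended on single arrays. Without anterior replicate 1, 11 of 34 member probes passed the study's criterion, all 6 above among them, and 6 passed the adjusted p, but 22.1% of all probes passed the criterion in that fit. Without anterior replicate 2, 4 of 33 passed (9.17% of all probes), with Wnt7a, Fzd5 and Fzd10 of the 6 among them, and Fzd5 passed the adjusted p. Without posterior replicate 2, 2 of 33 passed (3.8% of all probes), Wnt7a and Fzd5. Without posterior replicate 1 the count was 0 of 32 (3.58% of all probes). In each of these fits the lone array of a lobe was assumed to vary like those of the other lobe.

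**Figure D1:**
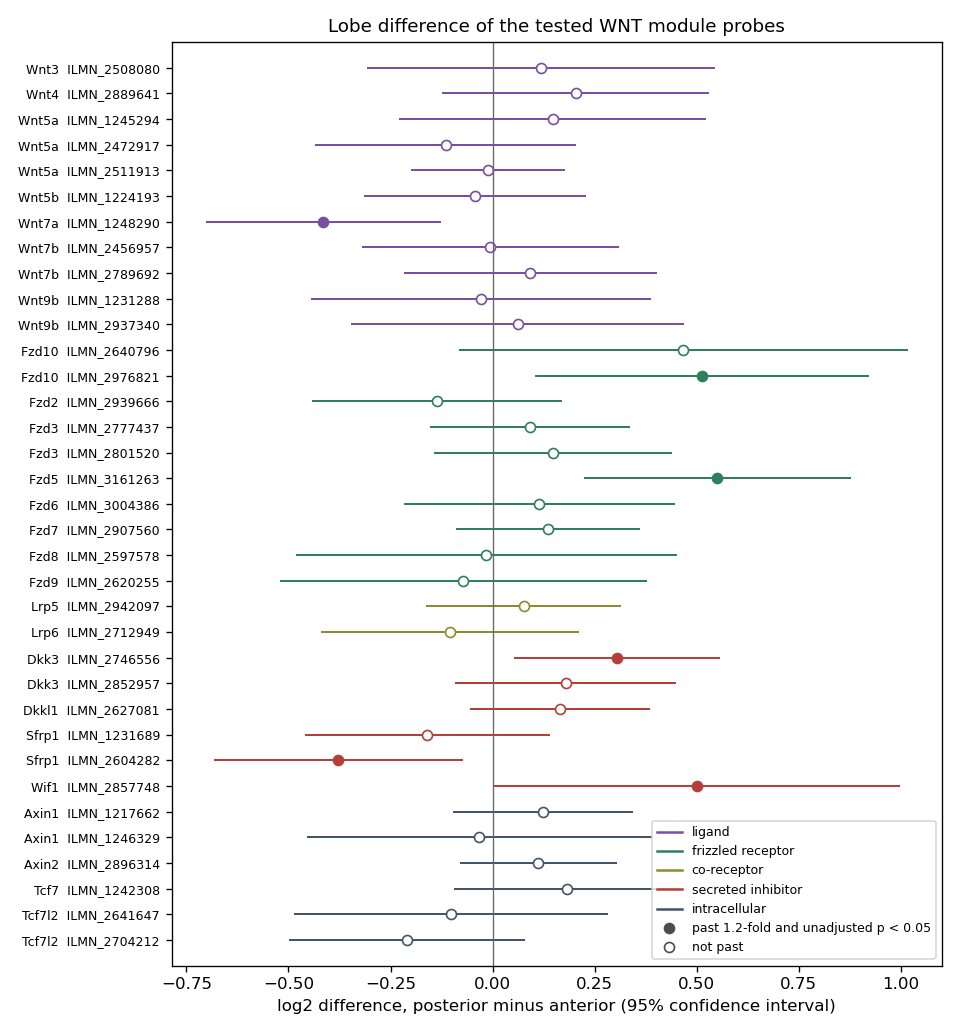
Log2 difference, posterior minus anterior (x axis), of each of the 35 tested member probes (rows, coloured by role), with its 95% confidence interval from the limma fit over all probes (4 arrays). Filled points are the 6 probes past the study's criterion, of which Fzd5, Fzd10, Dkk3 and Wif1 lie above 0 and Wnt7a and Sfrp1 lie below 0.

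Of the 19 ligand genes, 7 were tested, on 11 probes, and Wnt7a passed the criterion. Its probe (ILMN_1248290) read 10.49 and 10.72 on the anterior arrays and 10.13 and 10.25 on the posterior arrays, in log2 of the normalized intensity, the scale of all levels below. Both posterior arrays lay below both anterior arrays. The anterior mean was 10.61 ± 0.16 and the posterior mean 10.19 ± 0.08 (SD, n = 2 each). Wnt7a was therefore 1.33-fold lower in the posterior lobes, with a log2 difference of -0.41 (SE 0.12, 95% CI -0.70 to -0.13, limma adjusted p = 0.354). It had a single probe, so no second reading of the gene was at hand. Over the left-out arrays the log2 difference ran from -0.53 to -0.30.

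Wnt7b, the closest relative of Wnt7a in sequence, had 2 probes, both detected on all 4 arrays. The first (ILMN_2789692) read 9.20 and 9.0 on the anterior and 9.17 and 9.21 on the posterior arrays. The second (ILMN_2456957) read 7.37 and 7.63 on the anterior and 7.53 and 7.46 on the posterior arrays. The lobes overlapped on both probes. The log2 differences were 0.09 (SE 0.13, 95% CI -0.22 to 0.40, limma adjusted p = 0.832) and -0.0051 (SE 0.13, 95% CI -0.32 to 0.31, limma adjusted p = 0.992). The sign of the second probe turned to 0.013 without normalization and to 0.045 with the arrays set to a common 75th percentile.

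The other tested ligands were Wnt3, Wnt4, Wnt5a, Wnt5b and Wnt9b. With Wnt7b they gave 10 probes with log2 differences from -0.11 to 0.20, none past the criterion. Wnt4, best known from the developing kidney, had the highest of these, and read 7.35 and 7.63 on the anterior and 7.72 and 7.66 on the posterior arrays. Its lobes did not overlap, but the difference of 0.20 (SE 0.13, limma adjusted p = 0.638) was smaller than the gap between the anterior replicates. Wnt5a, the main ligand of the branch that does not use β-catenin, was read by 3 probes with differences of 0.15, -0.11 and -0.01. The remaining 12 ligand genes had no tested probe: Wnt1, Wnt2, Wnt2b, Wnt3a, Wnt6, Wnt8a, Wnt8b, Wnt9a, Wnt10a, Wnt10b, Wnt11 and Wnt16.

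Of the 10 frizzled receptors, 8 were tested, on 10 probes, and 2 probes passed the criterion, both higher in the posterior lobes. Fzd5, a receptor for Wnt5a and Wnt7a among others, had 1 tested probe (ILMN_3161263). It read 8.65 and 8.89 on the anterior and 9.34 and 9.30 on the posterior arrays. The posterior arrays lay close to each other and above the anterior ones. The means were 8.77 ± 0.17 and 9.32 ± 0.02 (SD, n = 2 each), a 1.47-fold higher level in the posterior lobes. The log2 difference was 0.55 (SE 0.13, 95% CI 0.23 to 0.87, limma adjusted p = 0.287), and over the left-out arrays it ran from 0.43 to 0.67. By the methods' test, Fzd5 was the only member probe past the criterion, which 3.41% of all probes passed. The other 3 probes for Fzd5 were not tested, since each was detected on fewer than 2 arrays, so the difference rests on a single probe.

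Fzd10, a frizzled known from the developing neural tube, had 2 tested probes. On the brighter probe (ILMN_2976821) the anterior arrays read 8.91 and 8.49 and the posterior arrays 9.24 and 9.19. Both posterior arrays were higher, and the anterior replicates lay farther apart than the posterior ones. The means were 8.70 ± 0.30 and 9.22 ± 0.03 (SD, n = 2 each), a 1.43-fold difference. On the log2 scale it was 0.51 (SE 0.17, 95% CI 0.11 to 0.92, limma adjusted p = 0.407), and it fell to 0.30 without anterior replicate 2 and rose to 0.73 without anterior replicate 1. The dimmer probe (ILMN_2640796) read 6.98 and 6.27 on the anterior and 7.14 and 7.05 on the posterior arrays. Only the posterior arrays detected it, so it was tested through the lobes where it was higher, with p-values of 0.038 and 0.048, against 0.057 and 0.38 on the anterior arrays. Its posterior level was at least 1.05-fold higher (limma adjusted p = 0.549). It did not pass the criterion. Its fitted log2 difference was 0.81 without anterior replicate 1 and 0.12 without anterior replicate 2. Both are set against an undetected anterior level, so neither is an exact difference. The probe was not tested without either posterior array. Here the bound sets the posterior mean against the mean, over the anterior arrays, of the probe's own signal or the lowest detected signal, whichever was higher.

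The 7 other tested probes for frizzled receptors read Fzd2, Fzd3, Fzd6, Fzd7, Fzd8 and Fzd9, with log2 differences from -0.14 for Fzd2 to 0.15 for Fzd3, and none passed the criterion. Fzd3, which guides axons through the planar polarity branch, read 9.85 and 9.90 on the anterior and 9.96 and 9.98 on the posterior arrays on its first probe. Its second probe read 9.09 and 9.19 against 9.23 and 9.35. The lobes did not overlap on either probe, with differences of 0.09 (SE 0.10, limma adjusted p = 0.781) and 0.15 (SE 0.12, limma adjusted p = 0.700). Fzd1 and Fzd4 had no tested probe. Lrp5 and Lrp6, the co-receptors of the canonical branch, had 1 tested probe each, with differences of 0.08 (SE 0.10, limma adjusted p = 0.819) and -0.10 (SE 0.13, limma adjusted p = 0.812).

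Of the 11 secreted inhibitors, 4 were tested, on 6 probes, and 3 probes passed the criterion, 2 higher and 1 lower in the posterior lobes. Sfrp1, which carries a frizzled-like domain and binds WNT proteins, was the lower one. Its probe ILMN_2604282 read 9.89 and 10.14 on the anterior and 9.63 and 9.64 on the posterior arrays. Both posterior arrays lay below both anterior arrays. The means were 10.01 ± 0.18 and 9.63 ± 0.01 (SD, n = 2 each), a 1.30-fold lower level, and the log2 difference was -0.38 (SE 0.12, 95% CI -0.68 to -0.08, limma adjusted p = 0.413). Without anterior replicate 2 it shrank to -0.25. The other Sfrp1 probe (ILMN_1231689) read 12.69 and 12.96 on the anterior and 12.55 and 12.79 on the posterior arrays. There the lobes overlapped, and the difference of -0.16 (SE 0.12, limma adjusted p = 0.684) had the same sign but did not pass the criterion.

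Wif1, which binds WNT proteins through a domain of its own, had a single probe (ILMN_2857748). It read 8.76 and 8.26 on the anterior and 9.15 and 8.87 on the posterior arrays. Both posterior arrays were higher, but posterior replicate 2 exceeded anterior replicate 1 by less than the replicates of either lobe differed. The means were 8.51 ± 0.35 and 9.01 ± 0.20 (SD, n = 2 each), a 1.41-fold difference. On the log2 scale it was 0.50 (SE 0.20, 95% CI 0.0061 to 0.99, limma adjusted p = 0.493), and it ran from 0.25 without anterior replicate 2 to 0.75 without anterior replicate 1.

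Dkk3, a distant member of its family that is not known to block Lrp6 as Dkk1 does, had 2 tested probes. The first (ILMN_2746556) read 10.97 and 10.80 on the anterior and 11.13 and 11.25 on the posterior arrays. Both posterior arrays were higher. The means were 10.88 ± 0.13 and 11.19 ± 0.09 (SD, n = 2 each), a 1.24-fold difference, and the log2 difference was 0.31 (SE 0.10, 95% CI 0.06 to 0.55, limma adjusted p = 0.417). On the second (ILMN_2852957) the anterior arrays read 11.10 and 10.91 and the posterior arrays 11.27 and 11.09. The lobes overlapped there, with a difference of 0.18 (SE 0.11, limma adjusted p = 0.617). Without normalization the first probe no longer passed the criterion, though its difference was 0.29. With normalization and an array left out, its difference ran from 0.22 to 0.40.

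Dkkl1, a relative of the Dkk proteins, had 1 tested probe (ILMN_2627081), which was close to the background. It read 6.92 and 6.87 on the anterior and 7.07 and 7.05 on the posterior arrays, and was detected on the posterior arrays only. There its detection p-values were 0.046 and 0.049, just under the threshold, against 0.073 and 0.10 on the anterior arrays. Its posterior level was at least 1.03-fold higher (limma adjusted p = 0.585). Dkk1, Dkk2, Dkk4, Frzb, Sfrp2, Sfrp4 and Sfrp5 had no tested probe.

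**Figure D2:**
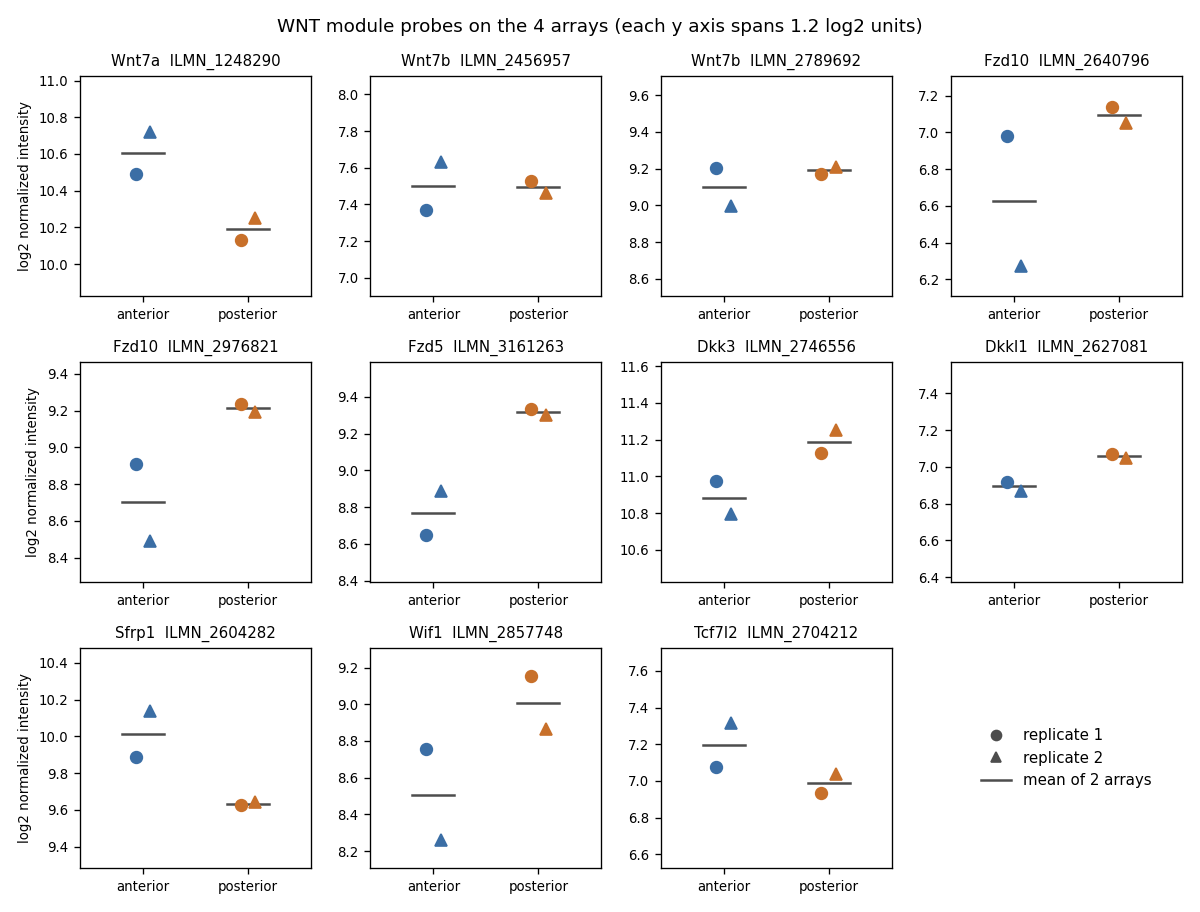
Log2 normalized intensity (y axis, spanning 1.2 log2 units in every panel) of 11 member probes on the 2 anterior and 2 posterior arrays. Circles are replicate 1, triangles replicate 2, and bars the mean of 2 arrays. The lobes overlap in the 2 panels of Wnt7b and in no other panel.

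Of the 5 intracellular members, 4 were tested, on 6 probes, and none passed the criterion. Axin2, a scaffold of the complex that destroys β-catenin and itself a gene that canonical signalling switches on, read 11.29 and 11.24 on the anterior and 11.38 and 11.38 on the posterior arrays. Both posterior arrays were higher, by a difference of 0.11 (SE 0.08, 95% CI -0.08 to 0.30, limma adjusted p = 0.658). Axin1, the related scaffold, had differences of 0.12 and -0.03 on its 2 probes, and Tcf7 a difference of 0.18 (SE 0.11, limma adjusted p = 0.618). Tcf7l2, a transcription factor that partners β-catenin, had a probe (ILMN_2704212) detected on the anterior arrays only. It read 7.08 and 7.31 on the anterior and 6.94 and 7.04 on the posterior arrays, with posterior detection p-values of 0.077 and 0.0502. Its posterior level was at least 1.10-fold lower (limma adjusted p = 0.596). The brighter Tcf7l2 probe, detected on all 4 arrays, had a difference of -0.10 (SE 0.16, limma adjusted p = 0.856) with overlapping lobes. Lef1 was not detected on at least 2 arrays by any of its 4 probes.

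The other genes of the pathway were taken from a list of 72 genes, of which 54 were tested on 96 probes. Of these, 8 probes (8.33%) passed the study's criterion, 4 higher and 4 lower in the posterior lobes, against 8.29% of all probes. Among the lower ones, the probe for Daam2 was detected on the anterior arrays only. None passed the adjusted p in limma. The median log2 difference was 0.01. Without anterior replicate 1 the count was 32, in a fit where 22.1% of all probes passed, and without anterior replicate 2 it was 12 (9.17% of all probes). Without posterior replicates 1 and 2 it was 3 and 5 (3.58% and 3.8% of all probes).

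Outside the cell, Rspo3 and Gpc3 were higher in the posterior lobes. Rspo3, an R-spondin that keeps WNT receptors at the cell surface, read 7.18 and 7.00 on the anterior and 7.76 and 7.64 on the posterior arrays. It was detected on 1 anterior and both posterior arrays, and differed by 0.61 (SE 0.12, limma adjusted p = 0.199). Gpc3, a glypican that binds WNT proteins and other signals, read 9.48 and 8.77 on the anterior and 10.44 and 9.66 on the posterior arrays, a difference of 0.92 (SE 0.32, limma adjusted p = 0.435). Its lobes did not overlap, but the replicates of each lobe lay far apart. A second probe for Gpc3 had overlapping lobes and did not pass (1.37, SE 0.73, limma adjusted p = 0.581).

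Inside the cell, Apc, the core scaffold of the destruction complex, read 10.84 and 11.13 on the anterior and 10.50 and 10.59 on the posterior arrays, a difference of -0.44 (SE 0.12, limma adjusted p = 0.338). Amer1, which binds Apc at the membrane, was detected on 1 anterior and both posterior arrays, and differed by 0.50 (SE 0.17, limma adjusted p = 0.435). Cxxc4, which binds the Dishevelled proteins that relay the frizzled signal, read 10.04 and 10.06 against 9.67 and 9.65, a difference of -0.39 (SE 0.10, limma adjusted p = 0.306). The lobes did not overlap on these probes. A second Cxxc4 probe differed by -0.17 (SE 0.13, limma adjusted p = 0.685) and did not pass. Tle2, a co-repressor that binds the Tcf proteins, differed by -0.42 (SE 0.13, limma adjusted p = 0.40) and by -0.27 on a second probe that did not pass. Daam1, a formin downstream of Dishevelled, differed by 0.28 (SE 0.10, limma adjusted p = 0.437) on 1 of its 4 tested probes, and its relative Daam2, not detected on the posterior arrays, was at least 1.15-fold lower there (limma adjusted p = 0.458), a bound under the 1.2-fold of the criterion. Of the known target genes, Ccnd1, Ccnd2 and Sp5 were tested on 7 probes and none passed.

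Markers of the cells that a cerebellar lobe can hold were read beside these results, and their part in the differences of the WNT genes was not tested. Of all probes tested, 8.29% passed the criterion, 5.0% as lower and 3.3% as higher, and 0.106% passed the adjusted p. Oligodendrocyte markers passed the criterion on 17 of 19 tested probes, all lower in the posterior lobes, 5 of them past the adjusted p in limma. The 5 read Mag, Mal and Mobp, genes of myelin, with log2 differences from -1.53 to -0.99. The summed intensity of the 19 probes was 88456 and 89514 on the anterior and 56726 and 53668 on the posterior arrays. The brightest probe of the list read Mbp, the myelin basic protein, and differed by -0.45. The other tested Mbp probes differed by -1.32, -1.15, -1.07 and -0.18. Without any single array, 16 or 17 probes of the list passed. Meningeal fibroblast markers passed on 6 of 9 probes, all higher, of which a dim probe for Dcn was detected on the posterior arrays only, at least 1.23-fold higher there (limma adjusted p = 0.316). The 9 probes had summed intensities of 15557 and 17523 against 23210 and 26734. Their brightest gene, Igf2, a growth factor, differed by 0.47, and the matrix genes Lum and Col3a1 by 0.51 and 0.49, where 1 anterior array did not detect Col3a1. Dcn, a matrix proteoglycan, differed by 0.93 on the probe past the adjusted p (limma adjusted p = 0.0235). Fewer of the 9 meningeal probes passed without either posterior array, where fewer of all probes passed as well.

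Choroid plexus markers passed on 2 of 6 probes, both lower, a direction in which 5.0% of all probes passed. Clic6 differed by -0.89, and Enpp2 by -0.41 on its brightest probe. The other tested Enpp2 probes differed by -0.14 and -0.11 and did not pass. The Clic6 difference was -0.54 without anterior replicate 2 and -1.12 without posterior replicate 2. Enpp2 was the brightest gene by the mean log2 level of the anterior arrays, but Ttr, the transthyretin that choroid plexus secretes, was brighter on both arrays of replicate 2. Their summed intensity was 4717 and 14871 on the anterior and 3327 and 7150 on the posterior arrays, so it was higher on both arrays of replicate 2. Ttr read 9.10 and 13.34 on the anterior and 8.37 and 11.85 on the posterior arrays, and Kl and Folr1 were not tested. Fewer choroid plexus probes passed without posterior replicate 1 and more without anterior replicate 1, as was so for all probes tested. Among unipolar brush cell markers 2 of 5 probes passed, both for Calb2, higher by 0.44 and 0.37, a direction in which 3.3% of all probes passed. The summed intensities of the list were 12559 and 13626 against 17054 and 16214. Fewer Calb2 probes passed without anterior replicate 1, where more of all probes did, and without either posterior array, where fewer did.

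Granule neuron and progenitor markers passed on 1 of 10 probes, near the 8.29% of all probes. That probe read Zic2, with a difference of 0.72, which was 0.40 without anterior replicate 2 and 1.03 without anterior replicate 1. A second Zic2 probe differed by 0.14 (SE 0.12, limma adjusted p = 0.722) and did not pass. The defining progenitor gene Atoh1 was not detected on any array. The summed intensity of the 10 probes was 34311 and 30760 on the anterior and 34547 and 33636 on the posterior arrays. Meis1 was the brightest gene. Endothelial and mural markers passed at a similar share, on 1 of 11 probes, a probe for Cdh5 with a difference of 0.46. The brighter Cdh5 probe differed by 0.20 (SE 0.12, limma adjusted p = 0.628) and did not pass. The summed intensities of this list were 10930 and 12569 against 11854 and 11692, with Cldn5 the brightest. None of the 7 Purkinje cell, 11 astroglial and 6 microglial probes passed. Purkinje markers, led by Itpr1, summed to 73936 and 76486 against 68623 and 68398, and Calb1 and Car8 were not detected on any array. Astroglial markers, led by Slc1a3, summed to 82213 and 83600 against 83590 and 78106, and S100b was not detected on any array. Microglial markers, led by Cx3cr1, summed to 2649 and 2287 against 2541 and 2299. For the left-out arrays that follow, a list of this paragraph that is not named had the same count as with all 4 arrays. Without anterior replicate 1, where 22.1% of all probes passed, 2 granule neuron, 4 endothelial, 3 Purkinje, 5 astroglial and 1 microglial probes did. Without anterior replicate 2 (9.17% of all probes), 2 granule neuron probes and 1 astroglial probe passed. Without posterior replicate 1 (3.58%), 0 granule neuron and 0 endothelial probes and 1 astroglial probe passed, and without posterior replicate 2 (3.8%), 2 granule neuron, 0 endothelial and 1 Purkinje probe.

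Promoter sequence was read from RefSeq for the members, to show what lies before the genes that passed the criterion. The windows held the 250 bases upstream of a gene start on GRCm38.p6, and 32 of the 47 genes had 40 windows. The letters CTTTG followed by AA, AT, TA or TT, the core that Lef1 and Tcf7 proteins bind, were searched on both strands. They were found in 6 of the 40 windows (15%), against 14.8% of 32851 windows of all genes. Of the genes past the criterion, Fzd5, Fzd10, Wif1 and Wnt7a had a window, and none of these 4 held the letters. Dkk3 and Sfrp1 had no entry. The 4 windows are shown whole, 5′ to 3′ on the strand of the gene. They lie at chr1:64737751-64738000 (Fzd5, minus strand), chr5:128600856-128601105 (Fzd10, plus strand), chr10:121033754-121034003 (Wif1, plus strand) and chr6:91411354-91411603 (Wnt7a, minus strand). G and C made up 76.4%, 76.4%, 62.8% and 77.6% of their bases, against a median of 52.4% over the windows of all genes.
Fzd5: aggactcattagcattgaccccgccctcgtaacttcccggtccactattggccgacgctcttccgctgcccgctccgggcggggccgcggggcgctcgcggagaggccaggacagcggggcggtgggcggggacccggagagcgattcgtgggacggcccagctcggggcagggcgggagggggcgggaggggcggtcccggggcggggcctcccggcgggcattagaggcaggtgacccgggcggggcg
Fzd10: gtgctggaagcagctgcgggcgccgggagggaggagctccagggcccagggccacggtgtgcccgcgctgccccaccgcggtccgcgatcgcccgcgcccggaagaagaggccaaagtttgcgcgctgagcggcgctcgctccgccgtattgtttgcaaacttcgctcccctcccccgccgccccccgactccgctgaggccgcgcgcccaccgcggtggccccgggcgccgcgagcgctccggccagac
Wif1: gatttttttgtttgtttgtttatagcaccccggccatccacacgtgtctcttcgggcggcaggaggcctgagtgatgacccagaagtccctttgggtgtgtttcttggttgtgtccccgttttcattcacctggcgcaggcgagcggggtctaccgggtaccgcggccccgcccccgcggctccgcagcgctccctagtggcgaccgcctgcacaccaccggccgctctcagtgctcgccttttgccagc
Wnt7a: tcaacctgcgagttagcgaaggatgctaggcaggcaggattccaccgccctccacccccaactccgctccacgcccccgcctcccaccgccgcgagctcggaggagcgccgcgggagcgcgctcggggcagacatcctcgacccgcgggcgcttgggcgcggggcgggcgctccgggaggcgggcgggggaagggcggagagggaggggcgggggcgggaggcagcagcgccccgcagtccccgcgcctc

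Among the tested members, Fzd7, Wnt5b and Tcf7l2 each had a window with the letters, and none of their probes passed the criterion. The stretches around them show what a match looks like, with the matching letters in capitals. They lie at chr1:59481990-59482050 (Fzd7, plus strand), chr6:119449424-119449484 (Wnt5b, minus strand) and chr19:55895280-55895320 (Tcf7l2, plus strand). The match before Fzd7 is on the opposite strand to the gene, and the others are on the strand of the gene.
Fzd7: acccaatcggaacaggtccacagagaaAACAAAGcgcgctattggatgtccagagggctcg
Wnt5b: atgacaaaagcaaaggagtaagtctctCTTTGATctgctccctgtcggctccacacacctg
Tcf7l2: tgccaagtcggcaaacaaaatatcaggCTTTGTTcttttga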

How the data were processed

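The authors deposited, for each probe on the 4 arrays, the mean bead intensity, its SD and the number of beads, from GenomeStudio with normalization switched off. They also deposited a detection score, the fraction of negative control probes dimmer than the probe. The genome build was not given in the sources used here. Another 16 per-sample columns were not used.

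Intensities were quantile normalized in R 4.3.3, set to a floor of 1 and taken to log2. Differences were fitted with limma 3.58.1 (lmFit, eBayes with an intensity trend) over all probes that 2 or more arrays detected (p under 0.05), adjusted by Benjamini-Hochberg over all of them. The fit was tested on simulated data. Array symbols were matched to RefSeq names (GRCm38.p6), and all 86 member probes matched. Probes of a gene were kept apart. Full values are given for member probes past the criterion or detected in 1 lobe only and for Wnt7b, and names for pathway genes past the criterion and for the brightest, called and undetected defining markers. A marker counted in its list is not reported here on its own. Ttr and the members Wnt4, Wnt5a, Fzd3, Axin1, Axin2, Tcf7, Lrp5 and Lrp6 were added after their values were seen. The members and lists were chosen with earlier results of these data known. Alternatives were other background corrections, scalings, filters, variance models and tests, the replicate number as a block, a 1.5-fold threshold, and each array left out.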

Additional observations from a re-analysis of the deposited data

How the results depend on the processing

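The count of 6 member probes past the study's criterion was 6 with neqc background correction (offset 16), a common 75th percentile, detection on all 4 arrays and no intensity trend, and 5 without normalization, all of them among the 6. It was 13 with no filter, where 86 probes were tested and the 7 added ones were each detected on fewer than 2 arrays, and 5.51% of all probes passed. There the median log2 difference of the member probes, 0.09 in the main fit, was 0.013. By the methods' t-test the count past the criterion was 1 (3.41% of all probes), and at 1.5-fold 0. No member probe passed the adjusted p in these settings. Leaving out single arrays gave 0 to 11 past the criterion and 0 to 6 past the adjusted p.

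The pathway count of 8 became 13 with no filter, 5 with detection on all 4 arrays, 2 by the methods' t-test and 2 at 1.5-fold, with 3 to 32 over the left-out arrays. Over all probes, 1802 passed the criterion, against 741 by the methods' t-test and 389 at 1.5-fold, with 766 to 4677 over the left-out arrays. The 23 past the adjusted p became 123 without normalization, 73 with no filter, 13 with no intensity trend and 0 by the methods' t-test, with 0 to 2538 over the left-out arrays. The cause of these changes was not tested. The 1802 probes were 716 higher and 1086 lower, whereas a common 75th percentile gave 977 higher and 850 lower.

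The replicate numbers are shared between the lobes, but nothing ties a number to an animal. Over the tested probes, the step from replicate 1 to 2 in the anterior lobes had a correlation of 0.458 with that in the posterior lobes, across probes, which are not independent replicates. With the replicate block, 7 member probes (the 6 and the dimmer Fzd10 probe), 18 pathway probes and 2818 of all probes passed the criterion, and 0 member probes and 588 of all probes passed the adjusted p.

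The Wnt7b probe ILMN_2456957, at -0.0051, turned to 0.013 without normalization and 0.045 with a common 75th percentile, and ran from -0.14 to 0.13 over the left-out arrays. The Wnt7b probe ILMN_2789692 ran from -0.0099 to 0.20 over them. Probes near the background limit what can be said of Dkkl1, Tcf7l2 and the dimmer Fzd10 probe.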

Other observations

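Of the 23 member genes with more than 1 probe, 10 had both tested and untested probes, and of the 9 with several tested probes, 4 had log2 differences of opposite sign. Another 2 probes carried older names that RefSeq gives to members, and fell outside the choice by symbol. C030016K15RIK, an older name of Lrp6, had a log2 difference of 0.17 (SE 0.12, limma adjusted p = 0.658), and D930050A07RIK, an older name of Fzd3, had 0.12 (SE 0.12, limma adjusted p = 0.761). Neither passed the study's criterion.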
